A study of Mus musculus with 4 samples.

Results

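The neural crest genes described here are 9 transcription factors and 1 receptor: *Tfap2a*, *Pax3*, *Msx1*, *Msx2*, *Foxd3*, *Sox9*, *Sox10*, *Ets1*, *Twist1* and *Ngfr*. They were chosen by name as known neural crest factors. The rule itself uses no measured value, but the choice was made with earlier results of these data known. Of the 24637 genes in the deposited table, 9 of the 10 were found under these names and *Tfap2a* was found under its older symbol *Tcfap2a*. All 10 passed the minimum set for testing, a mean normalized count of 10. Messenger RNA was sequenced in 4 libraries from mouse embryonic stem cell (ESC) lines, 2 labelled WT (genotype field *Taf4*+/+) and 2 labelled *Taf4a*-/- (genotype field *Taf4*-/-), grown as embryoid bodies (EBs) for 5 days and then on gelatin-coated plates for 9 more days, a protocol for making cardiomyocytes. *Taf4a* encodes Taf4, a subunit of TFIID, the complex that recognizes core promoters and starts assembly of the transcription machinery. The null allele lacks exons 11 and 12. The ESC lines came from blastocysts of heterozygous crosses and were kept on embryonic fibroblast feeders before differentiation. For its RNA sequencing the paper names 2 biological replicates and 2 independent lines of each genotype. Each library is therefore taken here as a separate line, though the labels give only replicate numbers.

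The neural crest is a migratory cell population that arises at the border between the neural plate and the surface ectoderm. Border factors such as *Tfap2a*, *Pax3* and the *Msx* genes come first, crest specifiers such as *Foxd3*, the SoxE factors *Sox9* and *Sox10*, *Ets1* and *Twist1* follow, and the cells then leave the epithelium and give rise to peripheral neurons, glia, melanocytes, facial skeleton and parts of the cardiac outflow tract. Most of these genes also act elsewhere, *Foxd3* in pluripotent cells, *Ets1* in endothelium, *Sox9* in cartilage and *Msx1*, *Msx2* and *Twist1* in mesoderm and limb mesenchyme. The study stained crest cells in embryos with probes for *Sox10*, *Crabp1* and *Wnt1*. The question here is how the crest genes were expressed in the cardiac cultures, which were not directed to that fate.

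The libraries held 21732746 to 27733034 reads counted on genes, and the values below are normalized counts, that is, read counts divided by a size factor for each library. Above the minimum mean of 10 there were 16926 genes, which were compared with limma on log2(normalized count + 1), where folds of genes with few reads come out too small. Calls were made where the p-value, adjusted over all genes tested by the Benjamini-Hochberg method, was under 0.05. With 2 lines a genotype, a permutation of labels alone could not reach that threshold. *Taf4a* itself was at 889 in WT replicate 1 and 678 in WT replicate 2, and at 1722 and 1799 in the other libraries, so its gene-level count, which covers all exons together, was higher where the gene is labelled as deleted. It does not separate the deleted exons, and 62 nt of *Taf4a* exon are shared with *4921531C22Rik*, a long non-coding gene on the other strand with 46.5 and 42.6 normalized counts in WT and 272 and 387 in the other libraries. The count therefore does not check the labels, and the genotypes are given as labelled. The paralogue of *Taf4a*, *Taf4b*, had 263 and 162 normalized counts in WT and 534 in each library labelled *Taf4a*-/- (log2 fold change 1.37, standard error 0.26, adjusted p = 0.0143 from limma). The cells are labelled as cardiac, and all 10 cardiomyocyte markers were called lower in the libraries labelled *Taf4a*-/-, with summed normalized counts of 33135 and 29950 in WT against 3592 and 3521, and none at 0 in any library. In these mixed cultures, fewer cells of a type and less RNA per cell cannot be told apart.

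In the libraries labelled *Taf4a*-/-, 1 of the 10 neural crest genes was called higher (*Msx1*), 1 was called lower (*Ngfr*) and 8 did not pass the test. Over all genes tested 11.3% were called higher and 17.3% lower, 28.6% in either direction, so the 2 calls among the 10 crest genes were a share near that of genes in general. Their median log2 fold change was 0.45, and that of all genes tested was -0.01. The libraries of the genotypes did not overlap for 6 of the 10, with 5 higher and 1 lower, beside 71.1% of all genes tested (34.5% higher and 36.6% lower). The standard errors of the crest genes were larger than usual, with a median of 0.44 on the log2 scale beside 0.20 over all genes tested.

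The promoters of the genes that differed most are shown because TFIID, the complex that holds Taf4, binds there. RefSeq entries on GRCm38.p6 were found for 6 of the 10 genes (*Foxd3*, *Msx1*, *Msx2*, *Ngfr*, *Tfap2a* and *Twist1*), and *Sox9*, *Sox10*, *Pax3* and *Ets1* had none. The 100 bases before the start site are given 5′ to 3′ on the strand of the gene, with capitals marking GGGCGG, the GC box, or its reverse complement CCGCCC. *Msx1* was at chr5:37824586-37824685 (minus strand), *Foxd3* at chr4:99656199-99656298 (plus), *Twist1* at chr12:33957571-33957670 (plus) and *Ngfr* at chr11:95587699-95587798 (minus).
Msx1: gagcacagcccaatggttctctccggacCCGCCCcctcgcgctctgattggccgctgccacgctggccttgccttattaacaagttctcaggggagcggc
Foxd3: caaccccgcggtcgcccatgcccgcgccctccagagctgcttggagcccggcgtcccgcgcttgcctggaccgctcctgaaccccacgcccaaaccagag
Twist1: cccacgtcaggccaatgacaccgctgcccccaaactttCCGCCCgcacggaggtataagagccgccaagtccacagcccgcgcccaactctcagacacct
Ngfr: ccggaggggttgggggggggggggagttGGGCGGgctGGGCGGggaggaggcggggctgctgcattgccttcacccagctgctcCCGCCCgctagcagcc

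These windows differ in their GC boxes. An exact TATAAA match, searched on both strands, was in 0 of the 7 windows of the 6 genes (*Tfap2a* has 2 entries). It was in 5.56% of all 32851 windows of this length. Variants, such as the tataag in the *Twist1* window, were not searched for. GGGCGG, also on both strands, occurred at 3 places at *Ngfr* and at 1 place at each of *Msx1*, *Twist1* and 1 of the *Tfap2a* starts, while 24.7% of all windows held it. The GC content was 64% at *Msx1* and *Twist1*, 73% at *Foxd3* and 77% at *Ngfr*, beside a median of 55% over all windows. A match is a description of the letters and not a measured binding site.

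**Figure D1:**
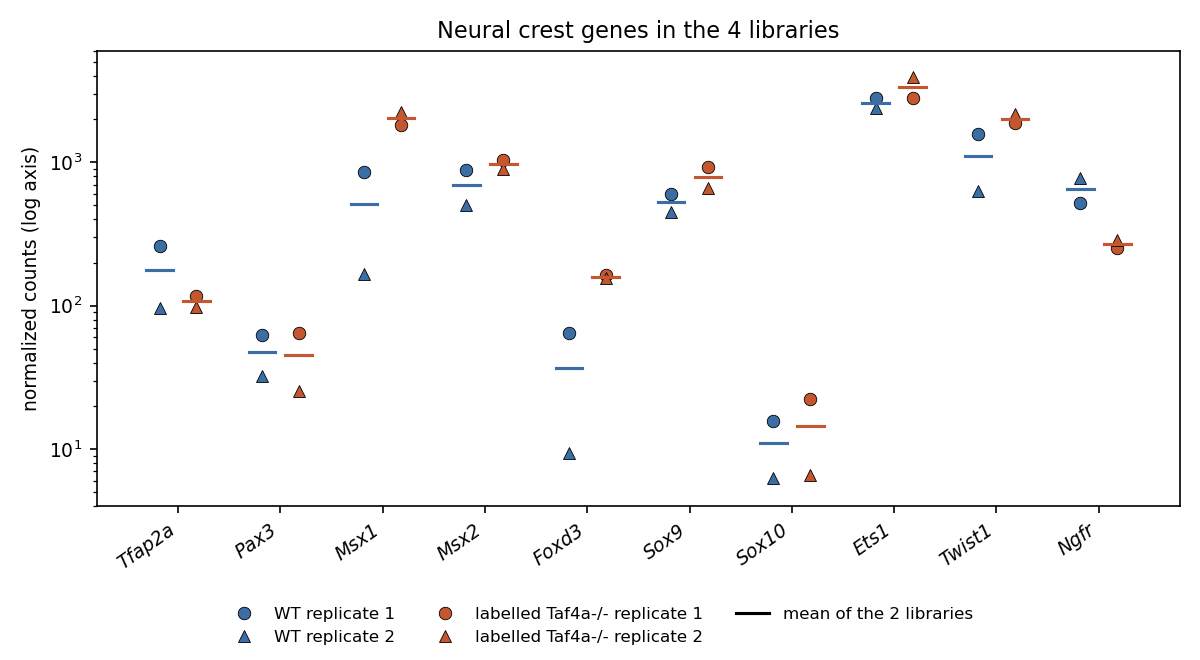
Normalized counts (log axis) of the 10 neural crest genes in each of the 4 libraries, WT in blue and the libraries labelled Taf4a-/- in orange, with replicate 1 as circles, replicate 2 as triangles and the mean of each genotype as a bar. Msx1 was at 166 and 849.5 in WT against 1824 and 2239.6, Ngfr was lower in both libraries labelled Taf4a-/-, and Sox10 stayed under 23 everywhere.

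The *Msx* genes encode related homeodomain repressors that respond to BMP signals at the plate border. *Msx1* stood at 849.5 normalized counts in WT replicate 1 and 166 in WT replicate 2, and at 1824 and 2239.6 in the libraries labelled *Taf4a*-/-. Both mutant-labelled libraries were above both WT libraries, and the WT libraries were themselves far apart. It rose 5.36-fold, by 2.42 on the log2 scale (standard error 0.68, adjusted p = 0.0444 from limma). Leaving out WT replicate 1 gave 3.60 and leaving out WT replicate 2 gave 1.25. In these fits the lone WT library takes the spread of the other genotype, so the distance between the WT libraries does not enter the error. Of 14 alternatives, only a fit with no variance trend did not call it (adjusted p = 0.124 from limma).

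*Msx2*, its paralogue, had 881 and 499.8 normalized counts in WT and 1037 and 897 in the libraries labelled *Taf4a*-/-. The groups did not overlap, but the lower mutant-labelled library was close to WT replicate 1, and the log2 fold change of 0.54 (95% interval -0.12 to 1.20) did not pass the test (adjusted p = 0.182 from limma). It was called without WT replicate 1, at 0.95 (adjusted p = 0.0236, range over the alternatives 0.0236 to 0.536). Per kilobase of exon, *Msx1* stood at 1.22 and 0.422 times the level of *Msx2* in the WT libraries and at 2.23 and 3.17 times in the others. Whether this ratio differed between genotypes was not tested.

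*Tfap2a*, which encodes the AP-2α factor of plate border and surface ectoderm, had 259.5 and 95.6 normalized counts in WT and 117 and 97.3 in the libraries labelled *Taf4a*-/-. The groups overlapped, since WT replicate 1 alone was high and the other 3 libraries were alike. The log2 fold change was -0.56 (95% interval -1.70 to 0.59, adjusted p = 0.407 from limma), which became 0.16 when WT replicate 1 was left out and -1.27 when WT replicate 2 was. Surface ectoderm markers were lower in the same libraries, with 9 of 10 called lower and summed normalized counts of 16461 and 19888 in WT against 11625 and 8884. The part of surface ectoderm in the *Tfap2a* value was not tested. None of these 10 markers was at 0 in any library, and of the defining pair *Krt5* was at 156 and 69.6 in WT and at 3.92 and 1.11 in the others.

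*Pax3*, a paired-domain factor of the dorsal neural tube, plate border and muscle precursors, had 62.2 and 32.2 normalized counts in WT and 64.6 and 25.4 in the libraries labelled *Taf4a*-/-. The genotypes had the same range, and within each the library of replicate 1 was the higher. Its log2 fold change was -0.14 (95% interval -1.49 to 1.22, adjusted p = 0.871 from limma), a direction that turned to 0.20 after quantile normalization, where all genes had a median of 0.11. It was 0.33 without WT replicate 1 and 0.52 without the library labelled *Taf4a*-/- replicate 2. These values rest on 23 to 71 reads per library. Neural tube markers had summed normalized counts of 3635 and 4332 in WT and 6172 and 4448 in the others, with 1 of 7 tested called higher and 0 lower. Most of that sum was *Nes*, at 2823 and 3746 in WT and 5397 and 3669 in the others. *Pax6* had 92.9 and 55.1 in WT and 97.9 and 39.8 in the others, the same order as *Pax3*. Of the 7 tested markers, 5 were higher in WT replicate 1 than in WT replicate 2, beside 48.2% of all genes tested. In the libraries labelled *Taf4a*-/-, 3 markers were higher in replicate 1, beside 8319 of all 16926 genes tested. The part of neural tube cells in the *Pax3* value was not tested.

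*Foxd3* encodes a forkhead repressor that marks premigratory crest and is also present in pluripotent cells. It had 64.0 and 9.35 normalized counts in WT, from 73 and 9 reads, and 162.5 and 156 in the libraries labelled *Taf4a*-/-. The mutant-labelled libraries were close to each other and above both WT libraries. Its log2 fold change of 2.63 (standard error 0.81, 95% interval 0.67 to 4.59), 6.18-fold, was the highest of the 10 genes and missed the threshold (adjusted p = 0.0550 from limma). It was called at 3.95 without WT replicate 1 (adjusted p = 0.0152) and not at 1.301 without WT replicate 2 (adjusted p = 0.0560), with a range over the alternatives of 0.0152 to 0.131. With pseudocount 10, quantile normalization or voom on the recovered reads it was called as well, at 2.16, 2.94 and 2.59. The fit with the replicate number as a block also called it, at 2.63.

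Most of the 10 pluripotent cell markers ran beside *Foxd3* in these libraries. Of them, 8 were called higher and 0 lower, with summed normalized counts of 5847 and 2935 in WT replicates 1 and 2 and of 17272 and 19429 in the libraries labelled *Taf4a*-/-. *Pou5f1*, the first of the defining pair, had 1097 and 278 normalized counts in WT against 3113 and 3325. Like *Foxd3*, the sum was highest in the libraries labelled *Taf4a*-/-, and none of the markers was at 0. Of the 10, 9 were higher in WT replicate 1 than in WT replicate 2, beside 48.2% of all genes tested. *Klf4* was the exception, at 632 and 1133 in WT and at 896 and 730 in the others, where the groups overlapped. *Msx1*, *Msx2*, *Sox9* and *Twist1* followed the order of *Foxd3* in genotypes and in WT lines. The part of pluripotent cells in these values was not tested.

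*Sox9*, a SoxE factor of crest, cartilage and several epithelia, had 598 and 452 normalized counts in WT and 927 and 664 in the libraries labelled *Taf4a*-/-. The groups did not overlap, and the gap between them was smaller than the difference between the lines of either genotype. Its log2 fold change of 0.59 (standard error 0.22, 95% interval 0.05 to 1.14) did not pass the test (adjusted p = 0.0956 from limma). Of 14 alternatives, 1 called it, the fit with the replicate number as a block (adjusted p = 0.0459 from limma). *Sox10*, the other SoxE factor among the 10 and the one that migrating crest and its glial descendants keep, had 15.8 and 6.23 normalized counts in WT and 22.5 and 6.64 in the libraries labelled *Taf4a*-/-. These are 18, 6, 23 and 6 reads, and the 95% Poisson intervals of the single values, which cover counting error only, ran from 9.35 to 24.9, 2.29 to 13.6, 14.3 to 33.8 and 2.44 to 14.4. Replicate 1 was the higher in both genotypes, and the log2 fold change of 0.28 (95% interval -1.52 to 2.08) showed no detectable difference at this depth (adjusted p = 0.797 from limma).

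*Ets1*, an ETS factor of cranial and cardiac crest that is also expressed in endothelium and blood, had 2830.0 and 2391 normalized counts in WT and 2819 and 3928 in the libraries labelled *Taf4a*-/-. Only the library labelled *Taf4a*-/- replicate 2 stood above the rest, and the groups overlapped. The log2 fold change was 0.36 (95% interval -0.10 to 0.81, adjusted p = 0.198 from limma). Endothelial markers differed the same way between the mutant-labelled lines, with summed normalized counts of 6882 and 10796, while WT replicates 1 and 2 had 12502 and 8672. Of these 9 markers 0 were called in either direction, none was at 0, and the part of endothelium in the *Ets1* value was not tested.

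*Twist1*, a basic helix-loop-helix factor of cranial crest and mesoderm that promotes loss of epithelial character, had 1587 and 628 normalized counts in WT and 1869.7 and 2163 in the libraries labelled *Taf4a*-/-. The groups did not overlap, and WT replicate 2 was the library that stood apart. The log2 fold change was 1.01 (standard error 0.40, 95% interval 0.03 to 1.99), 2.01-fold, and did not pass the test (adjusted p = 0.108 from limma). Without WT replicate 1 it was called at 1.68 (adjusted p = 0.0152, range over the alternatives 0.0152 to 0.215), and without WT replicate 2 it was 0.34.

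*Ngfr* encodes the p75 neurotrophin receptor, used to sort crest cells and also present on mesenchymal cells. WT replicate 1 had 523 normalized counts, WT replicate 2 had 777, and the libraries labelled *Taf4a*-/- had 253 and 289. Both mutant-labelled libraries were below both WT libraries and close to each other. It fell by 1.24 on the log2 scale (standard error 0.23, adjusted p = 0.0139 from limma), to a level 2.36-fold lower. Without WT replicate 2 it was -0.95 and missed the threshold (adjusted p = 0.0551, range over the alternatives 0.00984 to 0.0551). Fibroblast markers moved with it, with 8 of 10 called lower and summed normalized counts of 432213 and 602691 in WT against 50550.2 and 62515. None of these 10 was at 0, *Col1a1* and *Col1a2* of the defining pair were both called lower, and the part of fibroblasts in the *Ngfr* value was not tested.

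**Figure D2:**
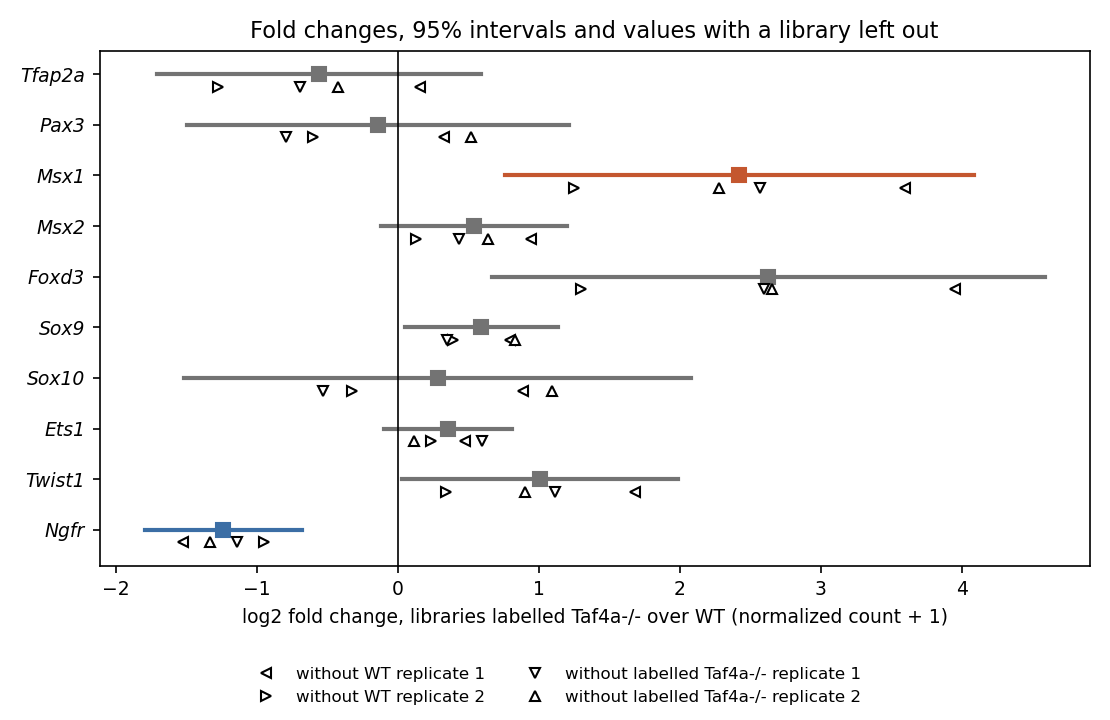
Log2 fold changes of the 10 neural crest genes (squares, libraries labelled Taf4a-/- over WT, on normalized count + 1) with 95% intervals from limma, in orange where called higher, blue where called lower and grey where not called. Open triangles give the value with 1 library left out, from 1.25 to 3.60 for Msx1 and from -1.52 to -0.95 for Ngfr, and those of Tfap2a, Pax3 and Sox10 lie on both sides of 0.

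Levels were compared between genes per kilobase of exon. In WT the order was *Twist1* (685 ± 419.7 normalized counts per kilobase, SD, n = 2), *Ets1* (406 ± 48.4), *Msx2* (281 ± 109.8), *Msx1* (262 ± 249.7), *Ngfr* (189 ± 52.3), *Sox9* (127 ± 24.96), *Tfap2a* (54.7 ± 35.7), *Foxd3* (15.5 ± 16.3), *Pax3* (7.63 ± 3.43) and *Sox10* (4.06 ± 2.49). Some neighbours had overlapping libraries and therefore cannot be put in order. These were *Twist1* and *Ets1*, *Msx2* and *Msx1*, *Msx1* and *Ngfr*, *Foxd3* and *Pax3*, and *Pax3* and *Sox10*. The same holds for some pairs further apart in the list. *Msx1*, at 85.9 to 439, also overlapped *Twist1*, *Ets1* and *Sox9*. *Msx2*, at 203 to 359, also overlapped *Ngfr*, and *Foxd3*, at 3.94 to 27.0, also overlapped *Sox10*. In the libraries labelled *Taf4a*-/-, *Twist1* (1248 ± 128) and *Msx1* (1049.95 ± 152) led with overlapping libraries, followed by *Ets1* (525 ± 122), *Msx2* (394 ± 40.2), *Sox9* (192 ± 45.1), *Ngfr* (78.5 ± 7.41), *Foxd3* (67.1 ± 1.95) and *Tfap2a* (33.1 ± 4.39). *Pax3* (7.28 ± 4.48) and *Sox10* (5.37 ± 4.14) came last and overlapped.

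*Sox9* stood at 24.9 and 47.6 times the level of *Sox10* per kilobase in WT and at 27.0 and 65.6 times in the other libraries. *Sox10*, *Pax3* and *Foxd3* were the lowest of the 10 in WT, and *Foxd3* was no longer among the lowest 3 in the libraries labelled *Taf4a*-/-, where *Tfap2a* took that place.

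The lines of a genotype differed in these genes. Of the 10, 9 were higher in WT replicate 1 than in WT replicate 2, beside 48.2% of all genes tested. Of these 9, 5 were at least 2-fold higher (*Foxd3*, *Msx1*, *Tfap2a*, *Twist1* and *Sox10*). The share over all genes tested was 4.06% (6.96% at least 2-fold apart in either direction). No crest gene was at least 2-fold higher in WT replicate 2. The log2 differences of *Foxd3* and *Msx1*, 2.65 and 2.35, stood in absolute size at the percentiles 99.6 and 99.5 of all genes tested, and *Ngfr* was the exception in direction, at -0.57. Each line is a single library, so these differences carry no test, and line and culture cannot be told apart.

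The median log2 difference between the WT lines was 1.07 for the 10 genes and -0.02 for all genes tested. In the libraries labelled *Taf4a*-/- the median was 0.13, with only *Sox10* (1.62) and *Pax3* (1.31) at least 2-fold higher in replicate 1. Of all 16926 genes tested, 406 were at least 2-fold higher in that replicate (5.27% at least 2-fold apart in either direction). Of the list of other plate border factors, all 11 tested genes were higher in WT replicate 1 and 6 at least 2-fold. Over all genes tested these shares were 48.2% and 4.06%. Neural tube markers had a median difference of 1.57 between the WT lines and pluripotent markers of 0.85, while cardiomyocyte markers had 0.02. Their part in the line difference was not tested.

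**Figure D3:**
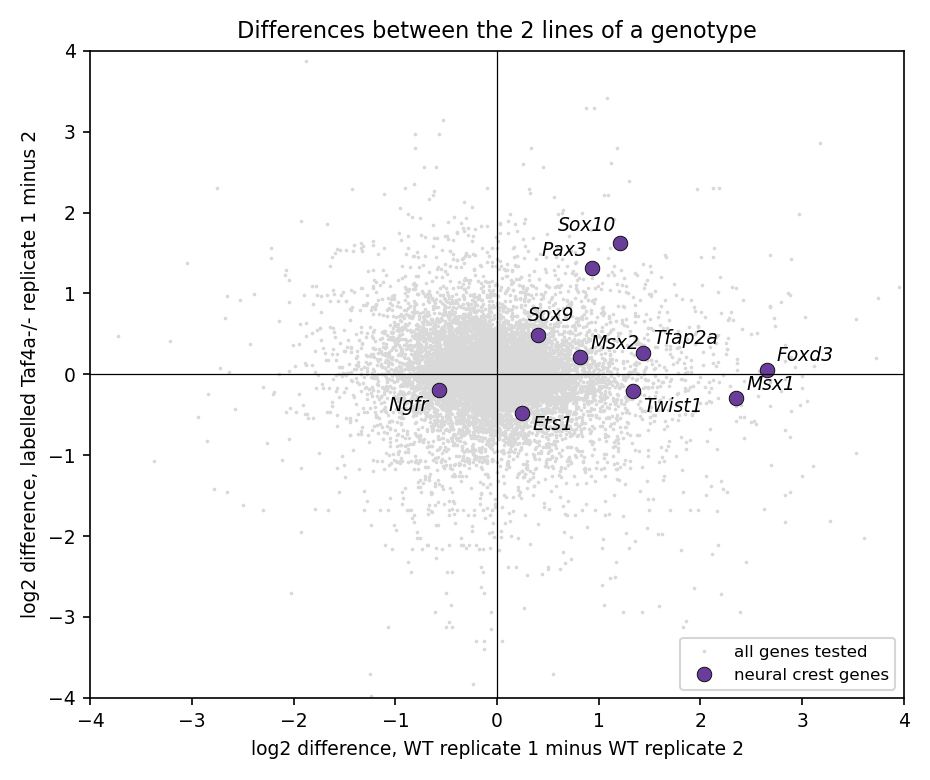
Log2 difference between the 2 WT lines (horizontal, replicate 1 minus replicate 2) and between the 2 lines labelled Taf4a-/- (vertical) for all genes tested (grey, 10 of them outside the axes) and the 10 neural crest genes (purple). The crest genes lie to the right, with Foxd3 at 2.65 and Msx1 at 2.35, apart from Ngfr at -0.57, and Sox10 and Pax3 are also high on the vertical axis.

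Around these genes, 8 lists of other crest genes held 118 genes, of which 117 were in the table and 95 passed the minimum mean. Among the 95, 9 were called higher and 21 lower in the libraries labelled *Taf4a*-/-, and their median log2 fold change was -0.32. Over all genes the shares were 11.3% higher and 17.3% lower. Of these 30 calls, 30 kept their direction and 9 were called at an adjusted p under 0.05 in every other fit that could be made (*Tfap2c*, *Sox5*, *Cdh11*, *Ednra*, *Ednrb*, *Sema3a*, *Ntrk2*, *Prrx1* and *Acan*). The other 21 were not called in at least 1 of these fits.

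Among 11 tested plate border factors, 2 were called higher and 0 lower. *Tfap2c*, a paralogue of *Tfap2a* that is also used in germ cells and trophoblast, rose from 237 and 211 to 652 and 564 normalized counts (log2 fold change 1.44, adjusted p = 0.00402 from limma). The count of rises in this list was 5 without WT replicate 1 and 4 without the library labelled *Taf4a*-/- replicate 2, and 2 falls were called without the library labelled *Taf4a*-/- replicate 1.

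Of 20 tested crest specifiers and emigration genes, 2 were called higher and 6 lower. *Myb* rose by 2.16 on the log2 scale, from 56.1 and 18.7 to 144 and 155 normalized counts, and *Id1*, an inhibitor of basic helix-loop-helix factors, rose by 0.52. The largest falls were in *Cdh6* (log2 fold change -1.67) and *Cdh11* (-1.09), cadherins of premigratory and of mesenchymal cells, and in the SoxD factor *Sox5* (-1.35). *Cdh11* fell from 10321 and 11028 to 4716 and 5299 normalized counts (adjusted p = 0.00350 from limma). The counts were 5 higher and 5 lower without WT replicate 1, 0 higher and 3 lower without WT replicate 2, 1 higher and 3 lower without the library labelled *Taf4a*-/- replicate 1, and 1 higher and 5 lower without its replicate 2. *Myb* (1.40), *Cdh6* (-1.39) and *Id1* (0.36) were not called without WT replicate 2, nor was *Id1* without either library labelled *Taf4a*-/-, at 0.43 and 0.60. *Crabp1*, a retinoic acid binding protein gene, had 563 and 257 normalized counts in WT and 636 and 263 in the others (log2 fold change 0.11, 95% interval -1.13 to 1.34), and the Wnt ligand gene *Wnt1* had 73.6 and 7.27 against 62.7 and 7.74 (-0.08, 95% interval -3.17 to 3.02). Both embryo probes were higher in replicate 1 of each genotype, as *Sox10* was, and neither passed the test (adjusted p = 0.891 and 0.970 from limma).

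Receptors and ligands that guide crest cells formed another list. *Ednra* and *Ednrb*, the endothelin receptors of facial crest and of melanocyte and enteric precursors, fell. *Ednra* went from 1205 and 1556 to 365 and 425 normalized counts (log2 fold change -1.80, standard error 0.18, adjusted p = 0.00251 from limma). *Ednrb* went from 2225 and 3103 to 564 and 631.5 (log2 fold change -2.14, standard error 0.18, adjusted p = 0.00164). Their ligand genes *Edn1* and *Edn3* had log2 fold changes of -0.47 and -0.83 and were not called.

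*Sema3a*, a repellent for migrating crest, fell by 0.92, and *Ret*, the receptor for GDNF in enteric precursors, rose from 85.9 and 30.1 to 149 and 240.0 normalized counts (log2 fold change 1.87, adjusted p = 0.0439 from limma). *Ret* was not called without WT replicate 2, at 1.13, or without the library labelled *Taf4a*-/- replicate 2, at 1.53. Of the 18 genes of this list, 1 was called higher and 3 lower, and 5 were lower without WT replicate 1.

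The partners of *Ngfr* were lower as well where called. Of 10 other neurotrophin genes, 0 were called higher and 4 lower, and the median log2 fold change of the 10 was -0.81. *Ntrk2*, the receptor for BDNF, went from 741 and 650.4 normalized counts in WT to 153 and 147 (log2 fold change -2.20, standard error 0.17, adjusted p = 0.00134 from limma).

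The ligand genes *Ntf3* and *Bdnf* fell by 1.32 and 1.12 on the log2 scale (*Bdnf* was chosen after its value was seen). *Ntrk3* was not called, at -0.24 (95% interval -0.78 to 0.31). With any single library left out the number called lower ran from 1 to 4, and *Ntrk2* was called in all of these fits. It was 1 without WT replicate 2 and 2 without either library labelled *Taf4a*-/-. *Ntf3* lost its call in those fits (-1.41 to -1.18), and *Bdnf* with any single library left out (-1.21 to -1.03).

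**Figure D4:**
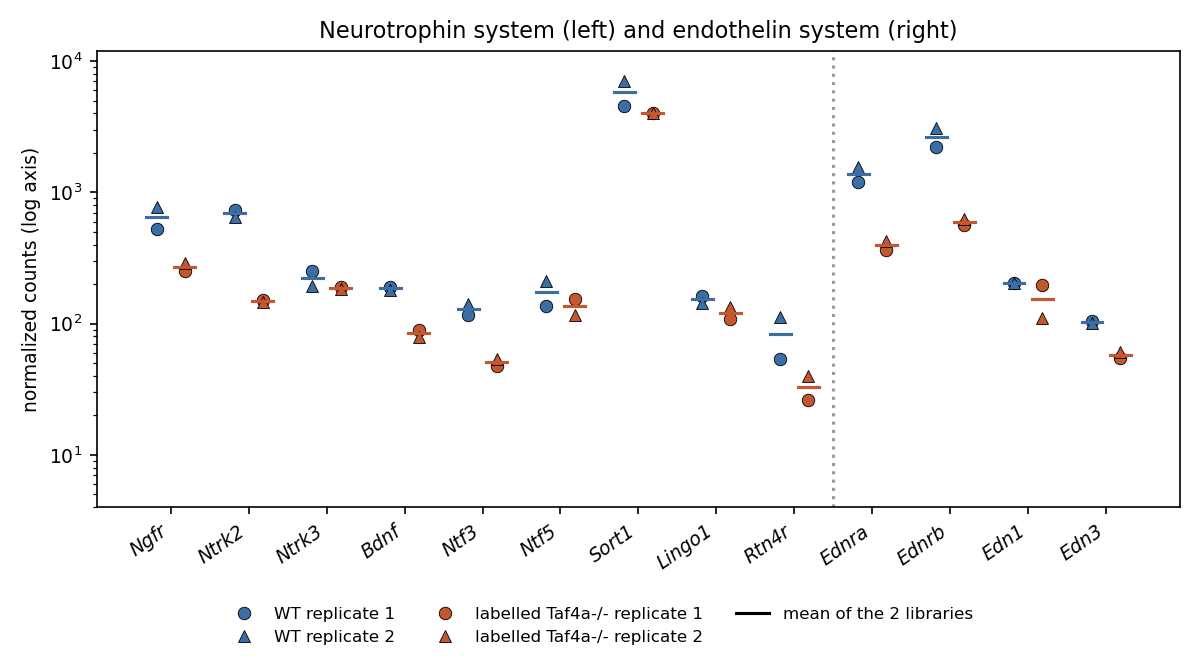
Normalized counts (log axis) of Ngfr with other neurotrophin receptors, ligands and co-receptors (left of the dotted line) and of the endothelin receptors and ligands (right) in each of the 4 libraries, with the mean of each genotype as a bar. Ngfr, Ntrk2, Ednra and Ednrb are lower in both libraries labelled Taf4a-/- than in both WT libraries, while those of Ntrk3 lie close together.

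Genes of crest descendants were also listed. Of 12 Schwann cell and glial genes 8 were tested, with 0 called higher and 4 lower. *Fabp7* of glial precursors (log2 fold change -3.19), the zinc finger gene *Egr2* (-1.77), *Gap43* (-1.13) and the myelin gene *Mbp* (-1.13, the fourth, chosen after its value was seen) were the falls. *Fabp7* had 80.7 and 34.3 normalized counts in WT and 2.94 and 7.74 in the others. *Fabp7* (-2.59 and -3.80) and *Egr2* (-1.78 and -1.75) lost their calls without WT replicate 1 and without WT replicate 2, as *Mbp* did (-1.24 and -1.01), and *Gap43* lost its call without the library labelled *Taf4a*-/- replicate 1 (-1.02). Without its replicate 2, *Egr2* (-1.42) and *Mbp* (-0.73) were not called. The number called lower was 1 without either WT library and 2 without the library labelled *Taf4a*-/- replicate 2. The glial genes *S100b* and *Cdh19* had at most 2 reads each in any library.

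Of 10 melanocyte genes 2 were tested. *Mitf*, a factor of melanocytes that other cells use too, fell (log2 fold change -1.69), and *Pmel* rose (1.07, adjusted p = 0.0279 from limma). *Mitf* was not called without WT replicate 2, at -1.43, and *Pmel* was not called when any single library was left out, at 0.91 to 1.23. The pigment enzyme genes *Dct*, *Tyr* and *Tyrp1* had at most 10, 7 and 3 reads in any library.

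Of 14 autonomic and sensory neuron genes 9 were tested, with *Pou4f1* (log2 fold change 1.91) called higher and *Runx3* (-1.81) called lower. Neither was called without WT replicate 2 (1.85 and -1.67), and *Pou4f1* also was not without either library labelled *Taf4a*-/- (1.70 and 2.13). *Pou4f1* had 11.4 and 10.4 normalized counts in WT and 50.9 and 37.6 in the others.

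Of 20 craniofacial and mesenchyme genes 17 were tested, with 2 called in each direction. The cartilage genes differed from each other, since *Acan* rose (log2 fold change 2.66, adjusted p = 0.0120 from limma) from 7.01 and 14.5 to 81.3 and 59.7 normalized counts while *Col2a1* fell (-1.51, adjusted p = 0.0196) from 2759 and 2234 to 1230.5 and 616. *Prrx1*, a homeobox gene of limb and facial mesenchyme, rose from 983 and 1058 to 2092 and 2249.6 (1.09, adjusted p = 0.00326), and *Foxc2* fell (-1.15, adjusted p = 0.0329). Without WT replicate 1 the counts were 4 higher and 0 lower, and without any other single library 1 was lower. *Col2a1* was not called without either WT library (-1.36 and -1.66), nor *Foxc2* without WT replicate 1 (-0.79) or either library labelled *Taf4a*-/- (-1.09 and -1.21).

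**Figure D5:**
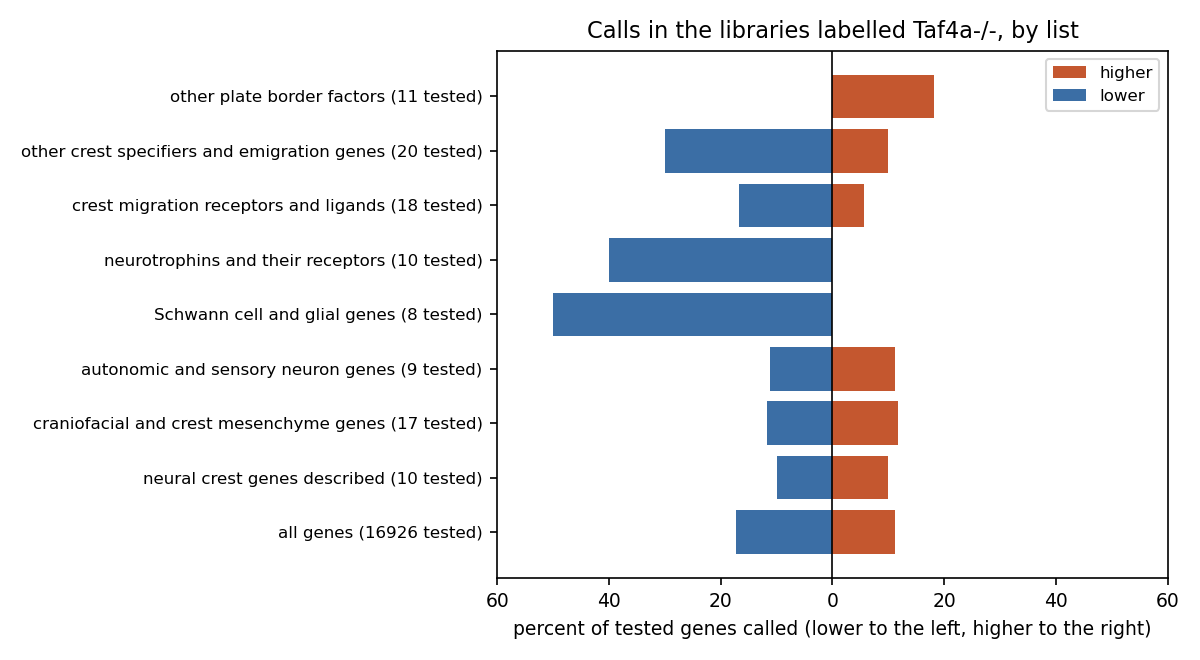
Percent of tested genes called lower (left, blue) and higher (right, orange) in the libraries labelled Taf4a-/- for the neural crest genes, the lists of other crest genes with at least 5 tested genes, and all genes. All genes stand at 17.3% lower and 11.3% higher, the 10 neural crest genes at 1 in each direction, and the neurotrophin and glial lists have calls on the lower side alone.

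On the NCBIM37 build that the counts use, 8 of the 10 genes overlap no other annotated gene. *Msx1* lies on chromosome 5 from 38211724 to 38215822 (minus strand), and *Ngfr* on chromosome 11 from 95430132 to 95449049 (minus strand). *Foxd3*, on chromosome 4 from 99322990 to 99325362 (plus strand), holds an annotated microRNA over 89 nt of its exon, and *Tfap2a*, on chromosome 13 from 40811044 to 40829192 (minus strand), shares 111 nt of exon with the long non-coding gene *Gm16989* on the other strand. *Gm16989* reached at most 9.79 normalized counts in any library.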

How the data were processed

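Messenger RNA was sequenced in 4 libraries. Reads were mapped by the authors on mm9 (NCBI37), and they deposited counts per gene normalized with DESeq 2, and the submitters' processing notes list CASAVA 1.8, TopHat 1.3.3, HTSeq 0.5.3p1 and DESeq. Use of strand in counting is not given in the sources used here. The deposited values are another unit than counts, namely counts divided by a size factor, and 100% of them were whole multiples (within 0.001 reads) of the value of 1 read.

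Genes with a mean of at least 10 were compared by limma 3.58.1 with a variance trend (R 4.3.3) on log2(value + 1). The fit was tested on simulated reads that had the same relative spread for all genes and no difference between lines. The WT lines differed widely in several crest genes, so this test says little about those genes. Exon lengths came from GENCODE on NCBIM37, and figures from matplotlib 3.10.9. The neural crest genes and lists were chosen with earlier results of these data known. Genes named from the lists were the 3 largest called rises and falls in each, plus *Taf4a*, *Taf4b*, *Crabp1* and *Wnt1*. Other list genes named in the report, called or not, were chosen after their values were seen. *Sox1* was not analysed here, and some genes that the lists hold or the rule names are not reported here. The replicates are taken as separate ESC lines, which the labels do not state. Alternatives were other pseudocounts, filters, scalings, thresholds, variance models, fits with the replicate number as block and fits without each library.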

Additional observations from a re-analysis of the deposited data

How the results depend on the processing

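Alternatives for the lists were added after seeing the data. DESeq2 and edgeR were not run, and voom on the reads recovered from the deposited values took their place. Leaving out a library gives the lone library of a genotype the spread of the other. Depth was lowest for *Sox10*, at 6 to 23 reads a library. The causes of the changes below were not tested.

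Over all genes, 1906 were called higher and 2928 lower. These were 856 and 1741 with no variance trend and 331 and 1119 at an adjusted p under 0.01, and 2903 were higher at an adjusted p under 0.1. With a library left out they ran from 624 to 2476 higher and from 1222 to 3038 lower. Quantile normalization made 52.2% of calls higher instead of 39.4%, equal totals 44.6%. Of the 10 crest genes 1 was called higher. That was 2 with pseudocount 10, quantile normalization or voom, 0 with no variance trend or at an adjusted p under 0.01, 3 at an adjusted p under 0.1, and 1 to 4 with a library left out (4 without WT replicate 1). The 1 called lower became 0 at an adjusted p under 0.01 and ran from 0 to 1 with a library left out.

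With the replicate number as a block, 3 crest genes were called higher, *Msx1*, *Foxd3* (2.63, adjusted p = 0.0298) and *Sox9* (0.59, adjusted p = 0.0459), and 1 lower. The labels do not say whether libraries with the same number were handled together. Over all genes tested, same-numbered deviations had a correlation of 0.01, which cannot settle this, since a shared handling could touch few genes. Direction turned for *Tfap2a* without WT replicate 1 (0.16), and for *Pax3* with quantile normalization (0.20), without WT replicate 1 (0.33) and without *Taf4a*-/- replicate 2 (0.52). It turned for *Sox10* without WT replicate 2 (-0.32) and without *Taf4a*-/- replicate 1 (-0.53), for *Crabp1* in the same fits (-0.46 and -0.53), and for *Wnt1* with quantile normalization (0.23), without WT replicate 1 (1.51) and without *Taf4a*-/- replicate 2 (1.36). With a library left out, *Tfap2a* ran from -1.27 to 0.16, *Pax3* from -0.79 to 0.52, *Sox10* from -0.53 to 1.09, *Crabp1* from -0.53 to 0.74 and *Wnt1* from -1.66 to 1.51. Of 138 values of the 10 genes under alternatives, 122 kept direction and call.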
